A study of Mus musculus with 23 samples.

Results

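The genes described here are 8 of the 24411 in the deposited tables, all of the cholesterol synthesis pathway, followed across 23 mouse lung RNA-seq libraries: Hmgcs1, Idi1, Fdps, Fdft1, Sqle, Lss, Insig1 and Srebf2. They were taken by gene symbol. The first 6 encode enzymes, Insig1 a sterol sensor and Srebf2 a transcription factor. None of the 8 encodes a cholesterol uptake receptor, and uptake genes were counted as a separate list. All 8 passed the filter on low counts in every comparison.

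The study profiled lungs of Rarres1 knockout (KO) and wild-type (WT) mice with bulk RNA-seq of total RNA. Rarres1 (retinoic acid receptor responder 1) encodes a membrane protein, and the labels do not say how its knockout allele was made. The 7 groups were KO and WT lungs at embryonic day 19.5 (E19.5, 3 libraries each), KO and WT lungs at 10 months (3 each), and at 18 months KO lung tumours (3), KO lung without tumour (5) and WT lungs (3). All mice had a C57BL/6 background, were kept in a pathogen-free barrier facility and received no treatment. The 10-month and 18-month mice were male, and the labels give no sex for the embryos. Tumour and non-tumour KO libraries that carry the same mouse code (1, 3 and 6) were read as coming from the same mouse. The title of the non-tumour library with code 6 gives a different number than its code, so that pair is less certain.

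Library totals lay between 23661181 and 46566642 estimated counts. Rarres1 itself went with the labels: its level was at most 0.038 CPM (counts-per-million, scaled by TMM over all libraries) in every KO library, tumours included, and at least 0.889 CPM in every WT library. The 8 alveolar type 2 markers were detected in every group. Several libraries stood apart from their groups in cell type markers. WT embryo 3 had a summed level of 712.8 CPM for 5 squamous oesophageal genes, against 3.47 and 6.00 CPM in the other two WT embryos. The 4 erythroid markers summed to 5030.4 CPM in KO library 2 of 10 months, against 2116 and 1723 CPM in the other two, and to 5085 CPM in WT library 1 of 18 months, against 1849.8 and 2183 CPM. Alveolar macrophage markers stood out in tumour 1, at 12683 CPM against 2068 and 2052 CPM in the other two tumours, and endothelial markers in tumour 6, at 2819 CPM against 1011 and 1024 CPM. Heart muscle markers ranged from 80.0 to 1309 CPM among WT libraries of 10 months. The labels name separate samples but not litters or cages, so the p-values measure only the spread between these samples.

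Cells make cholesterol from acetyl-CoA through the mevalonate pathway, a chain of reactions in the cytosol and endoplasmic reticulum. Its genes are switched on together by SREBP2, the product of Srebf2, which is held in the endoplasmic reticulum by the INSIG proteins while sterols are plentiful and released to the nucleus when sterols run low. In the lung, cholesterol is the main neutral lipid of surfactant, the film that alveolar type 2 cells secrete, and newly dividing cells also need it for membranes.

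Promoter sequence was available for 5 of the 8 genes (Insig1, Lss, Idi1, Hmgcs1 and Srebf2) in a RefSeq table of 32851 mouse promoters on GRCm38.p6, each running from 250 bases before to 50 bases after the annotated start. Fdps, Fdft1 and Sqle had no entry. The sequences of 4 are shown, chosen because results on these genes follow: Lss (chr10:76531355-76531654), Idi1 (chr13:8885356-8885655), Hmgcs1 (chr13:119690101-119690400) and Srebf2 (chr15:82147019-82147318), all on the plus strand, 5′ to 3′. Capitals mark CCAAT (the box bound by NF-Y, written ATTGG where it lies on the other strand), GGGCGG (the GC box bound by Sp1, CCGCCC on the other strand) and TCACCCCA.
Lss: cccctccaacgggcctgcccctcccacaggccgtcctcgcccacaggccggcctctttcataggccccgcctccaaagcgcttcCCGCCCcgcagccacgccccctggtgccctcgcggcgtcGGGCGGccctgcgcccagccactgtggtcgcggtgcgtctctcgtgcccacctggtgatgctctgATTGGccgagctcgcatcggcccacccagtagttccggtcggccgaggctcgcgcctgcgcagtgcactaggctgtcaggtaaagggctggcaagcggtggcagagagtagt
Idi1: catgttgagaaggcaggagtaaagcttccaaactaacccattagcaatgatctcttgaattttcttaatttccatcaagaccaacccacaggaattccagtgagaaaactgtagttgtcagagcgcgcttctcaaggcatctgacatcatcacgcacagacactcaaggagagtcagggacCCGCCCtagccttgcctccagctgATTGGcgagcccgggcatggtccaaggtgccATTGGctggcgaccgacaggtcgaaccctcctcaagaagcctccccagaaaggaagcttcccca
Hmgcs1: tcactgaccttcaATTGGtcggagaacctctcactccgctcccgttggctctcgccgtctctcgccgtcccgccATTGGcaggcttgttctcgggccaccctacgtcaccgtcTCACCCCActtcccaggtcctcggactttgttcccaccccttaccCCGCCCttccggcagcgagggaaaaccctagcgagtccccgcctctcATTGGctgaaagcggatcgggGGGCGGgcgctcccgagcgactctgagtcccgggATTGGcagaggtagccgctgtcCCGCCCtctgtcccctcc
Srebf2: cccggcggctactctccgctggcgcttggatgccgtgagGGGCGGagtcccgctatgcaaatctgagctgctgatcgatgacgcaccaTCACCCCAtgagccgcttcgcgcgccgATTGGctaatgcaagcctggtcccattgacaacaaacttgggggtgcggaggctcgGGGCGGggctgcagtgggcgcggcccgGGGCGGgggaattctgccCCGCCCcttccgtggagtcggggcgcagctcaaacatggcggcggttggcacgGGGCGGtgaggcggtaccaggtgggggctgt
Every one of the 5 promoters held CCAAT on one strand or the other, as did 37.4% of all promoters in the table, and every one held GGGCGG, as did 35.7% of all. Hmgcs1 had 4 CCAAT matches, Idi1 had 2 and the other 3 had 1 each. GGGCGG matched 5 times in Srebf2, 3 times in Hmgcs1 and Insig1, 2 times in Lss and once in Idi1. TCACCCCA is the core of the classical sterol regulatory element, the motif bound by SREBP proteins, and was added after the sequences had been read. It began 137 bases before the start of Hmgcs1 and 162 bases before that of Srebf2, and was present in 1.56% of all promoters. The full classical element, which has an A before and a C after this core, matched none of the 5 promoters and 0.0913% of all promoters. The E-box CACGTG matched only Insig1 among the 5, against 7.15% of all promoters. These are letter matches in one window, not tested sites.

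Per unit of transcript length, the 8 genes spanned a wide range. On the deposited FPKM scale (fragments scaled to transcript length and library size), Lss (lanosterol synthase, which closes squalene epoxide into the first sterol) had the lowest mean of the 8 in each of the 7 groups, between 5.79 ± 0.530 FPKM in WT lungs at 10 months and 11.4 ± 2.47 FPKM in tumours (SD, n = 3 each). Fdps (farnesyl diphosphate synthase) had the highest mean in each of the 5 adult groups. In tumours it reached 100.5 ± 4.42 FPKM (SD, n = 3), against 68.6 ± 20.3 FPKM in KO lung without tumour (n = 5) and 59.9 ± 6.20 FPKM in WT lungs at 18 months (n = 3). In the embryos Srebf2 came first, at 54.0 ± 4.89 FPKM in KO and 54.7 ± 1.70 FPKM in WT lungs (SD, n = 3 each). Its libraries overlapped those of Fdps in KO embryos and not in WT embryos. In the adult groups the ranges of Fdps and Srebf2 overlapped in KO lung without tumour and were apart in the other 4.

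The middle of the order changed with age. In WT embryos the means ran Srebf2, Fdps, Hmgcs1, Insig1, Idi1, Sqle, Fdft1 and Lss, and the neighbouring ranges overlapped only between Fdps and Hmgcs1 and between Hmgcs1 and Insig1. In WT lungs at 10 months they ran Fdps, Srebf2, Insig1, Idi1, Hmgcs1, Sqle, Fdft1 and Lss, with overlap only between Insig1 and Idi1. In tumours the order was Fdps, Srebf2, Insig1, Hmgcs1, Idi1, Sqle, Fdft1 and Lss. The ranges of Srebf2 and Insig1, of Insig1 and Hmgcs1 and of Hmgcs1 and Idi1 overlapped there. Sqle (squalene epoxidase), Fdft1 (squalene synthase) and Lss held the last 3 places in all 7 groups.

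The genes are not neighbours of each other in the genome. In the GENCODE annotation of GRCm38 (mm10), the build of the submitters' alignments, Hmgcs1 lies at chr13:119690379-119708260 and Idi1 at chr13:8885501-8892451. Sqle lies at chr15:59315077-59331192 and Srebf2 at chr15:82147181-82205379. Insig1 lies at chr5:28071363-28078662. These 5 genes are on the plus strand, and the positions of Lss, Fdps and Fdft1 are given with their results. The values are per gene and do not tell isoforms apart.

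**Figure D1:**
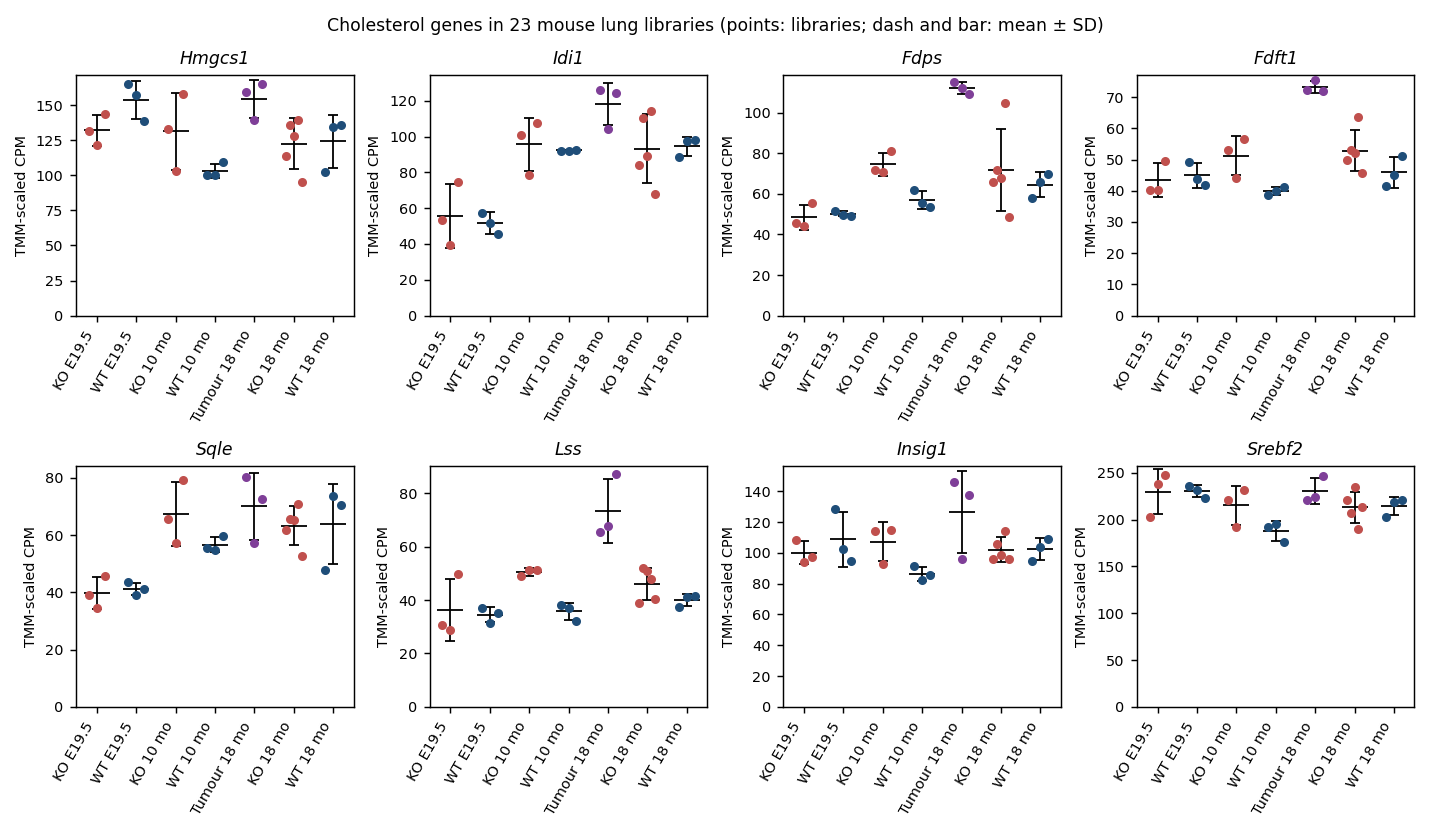
Level of each of the 8 genes in all 23 libraries, in CPM on a linear axis, by group, each point a library, with a dash and bar for the group mean ± SD. The Lss, Fdps and Fdft1 panels show the 3 tumours above every other library, apart from 1 KO non-tumour library that comes close for Fdps.

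The comparison of KO with WT lungs at 10 months asked whether loss of Rarres1 altered the adult lung. All 8 fold changes were above 0 in KO lungs, with a median of 0.32 on the log2 scale, against -0.00031 over the 15324 genes tested. Lss alone passed the threshold, an adjusted p under 0.05 in edgeR's quasi-likelihood test with Benjamini-Hochberg adjustment. That is 1 of 8, where 0.574% of all tested genes were called higher, 0.946% lower and 1.52% in either direction.

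Lss stood at 48.9, 51.3 and 51.3 CPM in KO lungs, against 38.1, 37.0 and 32.3 CPM in WT lungs. Every KO library was above every WT library, and the 3 KO values lay close together. The difference was 0.49 ± 0.08 (log2 fold change ± SE), a 1.40-fold higher level in KO lungs, with an adjusted p of 0.0179 by edgeR. The call was lost, at adjusted p between 0.0512 and 0.0640, without WT library 2, KO library 1 or KO library 3, and at 0.413 when all 23 libraries were fitted together. In bulk tissue, a change in the share of cells that express a gene and a change in RNA per cell cannot be told apart.

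The next nearest to the threshold were enzymes of the steps before Lss. Fdps, which builds farnesyl diphosphate, had 71.9, 70.6 and 81.0 CPM in KO lungs, against 61.9, 55.4 and 53.8 CPM in WT lungs, a difference of 0.38 ± 0.08 with an adjusted p of 0.0545. Fdft1, which joins a pair of farnesyl diphosphates into squalene, had 53.0, 44.2 and 56.5 CPM in KO lungs, against 38.5, 40.0 and 41.1 CPM in WT lungs (adjusted p = 0.0910). The groups did not overlap for either gene. They did not overlap for Insig1 either, at 114, 92.7 and 115 CPM in KO lungs against 91.2, 82.3 and 85.5 CPM in WT lungs (adjusted p = 0.129). That made 4 of 8 genes without overlap, where 24.7% of all tested genes had none.

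The other 4 overlapped. Hmgcs1 (HMG-CoA synthase, which makes the precursor of mevalonate) had 133, 103 and 158 CPM in KO lungs, against 100.4, 100.4 and 109 CPM in WT lungs, with a log2 fold change of 0.34 ± 0.14. KO library 2 lay inside the WT range for this gene and was the lowest KO library for 7 of the 8 genes. It was also the KO library with the high erythroid markers (5030.4 CPM, against 2116 and 1723 CPM), whose part was not tested. Without that library 4 genes were called higher (Lss, Hmgcs1, Fdft1 and Insig1, adjusted p between 0.0224 and 0.0361). Idi1 (isopentenyl diphosphate isomerase) was nearly level, at 95.6 ± 15.0 CPM in KO and 92.3 ± 0.359 CPM in WT lungs (SD, n = 3 each), which is 0.04 ± 0.10 on the log2 scale. Sqle differed by 0.24 ± 0.11 (adjusted p = 0.299). Srebf2 differed by 0.19 ± 0.08 (adjusted p = 0.266).

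Circadian clock genes moved with genotype in the same libraries. Of 12 listed clock genes, 7 were called higher and 2 lower in KO lungs at 10 months, and their summed level was 1372 to 1581 CPM in KO lungs, against 592 to 629 CPM in WT lungs. The 2 clock genes named here were picked after their values were seen. Dbp, a clock output factor, stood at 183 ± 31.3 CPM in KO and 14.8 ± 1.29 CPM in WT lungs, and the clock activator Arntl at 6.21 ± 1.39 CPM in KO and 36.8 ± 3.02 CPM in WT lungs (SD, n = 3 each). Of the cell type markers, 1 of 5 fibroblast markers and 1 of 4 ciliated cell markers were called lower in KO lungs, with summed fibroblast levels of 894 to 1204 CPM in KO lungs against 1340 to 1444 CPM in WT lungs. The part of these genes and cells in the Lss difference was not tested.

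**Figure D2:**
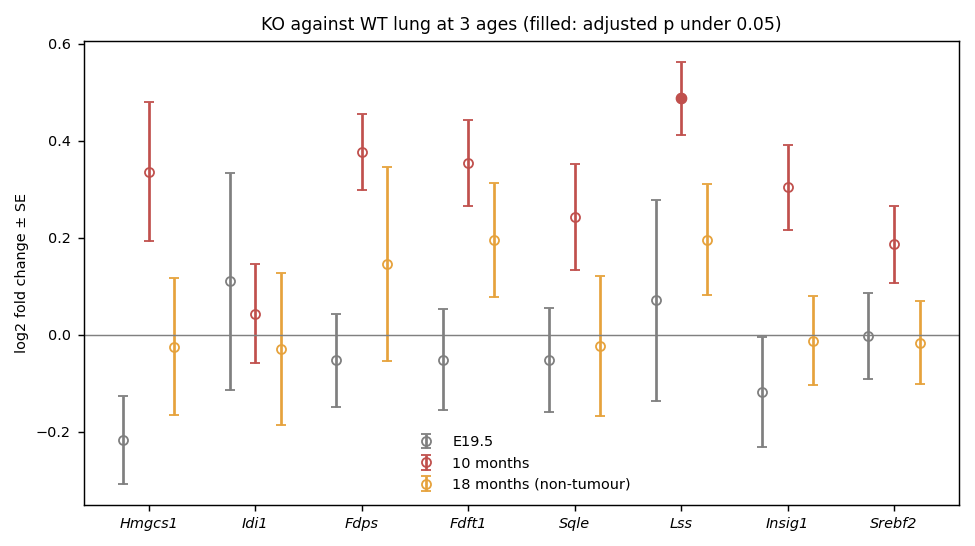
Log2 fold change, KO over WT, of the 8 genes at E19.5, 10 months and 18 months, with bars of 1 SE from edgeR and a filled point for an adjusted p under 0.05. At 10 months all 8 points lie above 0, with Lss at 0.49, while the E19.5 and 18-month points lie on both sides of 0.

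Neither of the other ages showed a call. At E19.5 the 8 log2 fold changes ran from -0.22 ± 0.09 for Hmgcs1 to 0.11 ± 0.22 for Idi1, with a median of -0.05, and 2 were above 0. edgeR called 0 of 15307 genes at this age (0%), with 144 at an unadjusted p under 0.05, and DESeq2 called 2. No gene of the 8 separated KO from WT embryos, where 4.96% of all tested genes did. KO embryo 3 stood above the other KO embryos for Lss, at 49.6 CPM against 30.5 and 28.6 CPM, and also for Idi1, at 74.8 CPM against 53.2 and 39.3 CPM.

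At 18 months, KO lung without tumour and WT lung differed by a median of -0.01 over the 8 genes. Lss had 38.7, 51.9, 51.1, 47.9 and 40.3 CPM in KO lungs, against 37.3, 41.0 and 41.5 CPM in WT lungs. The groups overlapped, since 2 of the 5 KO libraries lay below the highest WT library, and the log2 fold change was 0.20 ± 0.12 (adjusted p = 0.712). None of the 8 was called by edgeR, where 0.0776% of all genes were (0.0453% higher and 0.0323% lower), or by DESeq2, and none separated the groups, where 6.72% of all genes did. Of all tested genes, 1243 had an unadjusted p under 0.05 in edgeR and 154 were called by DESeq2. Of the 12 clock genes 5 were called higher and 2 lower in these KO lungs, with a summed level of 1331 to 1882 CPM in KO lungs against 586 to 801 CPM in WT lungs.

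The difference between ages was tested directly. The genotype effect at 10 months minus that at E19.5 was above 0 for 7 of the 8 genes, from -0.05 ± 0.28 for Idi1 to 0.57 ± 0.18 for Hmgcs1, and none passed the threshold in edgeR (adjusted p = 0.476 for Hmgcs1 and 0.376 for Fdps). Over all genes 25 of 15994 passed (0.156%, with 0.0625% above 0 and 0.0938% below). DESeq2 called none of the 8 either. Without KO embryo 3, Lss passed, at 0.71 with an adjusted p of 0.0385. The effect at 18 months minus that at 10 months was below 0 for all 8 genes, from -0.36 ± 0.21 for Hmgcs1 to -0.07 ± 0.21 for Idi1. None passed, nor did any of the 15653 genes tested (0%) in edgeR, with 453 at an unadjusted p under 0.05. DESeq2 called 1 gene, not of the 8.

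On the CPM scale tumours held the highest of the 7 group means for each of the 8 genes, although the Hmgcs1 mean was nearly the same in WT embryos and the Srebf2 mean in embryos of both genotypes. Against KO lung without tumour, all 8 fold changes were above 0, with a median of 0.33 against -0.0069 over all genes. Lss and Fdft1 were called higher, 2 of 8, where 7.2% of 15459 genes were called higher, 6.6% lower and 13.8% in either direction. Of the 8 genes 4 did not overlap between the groups (Hmgcs1, Lss, Fdps and Fdft1), against 20.9% of all genes.

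Lss had 65.4, 67.6 and 87.1 CPM in tumours 1, 3 and 6, against 38.7, 51.9, 51.1, 47.9 and 40.3 CPM in KO lung without tumour. All 3 tumours were above all 5 non-tumour libraries. The log2 fold change was 0.67 ± 0.14, a 1.59-fold higher level, with an adjusted p of 0.0157 by edgeR. With the mouse as a replicate block, which leaves only the 3 mice with both tissues to set the difference, it was 0.68 with an adjusted p of 0.0820, and the block also cut the genes called over the whole table to 146, against 2134 without it.

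Fdft1 had 72.1, 75.4 and 71.9 CPM in tumours, against 49.9, 53.1, 52.2, 63.7 and 45.6 CPM in KO lung without tumour. The 3 tumours lay within a narrow band above the highest non-tumour library. The difference was 0.46 ± 0.12 with an adjusted p of 0.0297 by edgeR. It was 0.41 with an adjusted p of 0.184 under the mouse block, and it missed the threshold when any one of 6 libraries was left out (tumours 1 and 3, non-tumour 1, 2, 3 and 7; adjusted p between 0.0553 and 0.0983).

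The Fdft1 count may take in reads of a neighbour. Fdft1 (chr14:63145150-63179578, minus strand, GRCm38) shares 774 exonic bases with Ctsb, which encodes the protease cathepsin B and lies on the opposite strand, and whether counting used the strand is not given in the sources used here. Fdft1 estimates carried decimals in 23 of 23 libraries, as happens where reads can be assigned to more than one source. Ctsb was itself at 1080 ± 476 CPM in tumours (n = 3), against 670.0 ± 83.4 CPM in KO lung without tumour (n = 5; SD), a log2 fold change of 0.68 ± 0.24 with an adjusted p of 0.0960. The share of Ctsb reads in the Fdft1 counts was not tested. Lss (chr10:76531588-76557138, plus strand) shares 381 exonic bases with the antisense transcript 4930483K19Rik, whose level was at most 0.22 CPM in any library. Lss estimates carried decimals in 11 of 23 libraries, and the source of the reads behind them was not tested. Fdps (chr3:89093588-89101959, minus strand) shares 1124 exonic bases with the predicted gene Gm43738 on its own strand, not analysed here.

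Fdps came close to a call. It had 115, 112 and 109 CPM in tumours, against 66.1, 71.8, 68.0, 105 and 48.7 CPM in KO lung without tumour. The groups were apart, but non-tumour library 6 lay just under the tumours and far above the other 4. The log2 fold change was 0.64 ± 0.20 with an adjusted p of 0.0675. It passed in DESeq2 (adjusted p = 0.0226) and in the fit over all 23 libraries (0.00253). Without that library it was 0.82 with an adjusted p of 0.00930. The tumour and the non-tumour library with code 6, read as the same mouse, thus had nearly the same Fdps level, at 109 and 105 CPM. Over all tested genes, the deviations of these libraries from their group means had a correlation of only 0.0614. Whether a shared mouse had a part in the Fdps levels was not tested.

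Hmgcs1 also separated the groups without passing, at 159, 139 and 165 CPM in tumours against 114, 136, 128, 139 and 95.4 CPM in KO lung without tumour (adjusted p = 0.144). The tumour and non-tumour values nearest to each other both rounded to 139 CPM. Idi1, at 126, 104 and 124 CPM in tumours, and Insig1, at 146, 96.2 and 137 CPM, overlapped the non-tumour range through tumour 3 (adjusted p = 0.228 and 0.191). Sqle had 80.3, 57.3 and 72.6 CPM in tumours, with tumour 3 again lowest, against 52.5 to 70.8 CPM in KO lung without tumour. Srebf2 differed least of the 8, at 0.11 ± 0.11.

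Set against WT lungs at 18 months, the same tumours gave 3 calls, Lss, Fdps and Fdft1, where 7.87% of 15346 genes were called higher, 7.5% lower and 15.4% in either direction. This comparison shares its tumour libraries with the one above. Lss was higher by 0.87 ± 0.14 (adjusted p = 0.0146), Fdps by 0.79 ± 0.10 (adjusted p = 0.00999) and Fdft1 by 0.66 ± 0.11 (adjusted p = 0.0144), all by edgeR. Fdps stood at 112 ± 2.89 CPM in tumours and 64.6 ± 6.12 CPM in WT lungs (SD, n = 3 each). Of the 8 genes 6 did not overlap, where 42.7% of all genes did not. Without WT library 2 or WT library 3 none of the 8 passed, and without WT library 1 only Fdps did, although the fold changes of these 3 genes stayed between 0.59 and 0.90 with any WT library left out. The loss ran over the whole table: 11 genes were called without WT library 2 and 3 without WT library 3, against 2358 with all libraries.

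Cell type markers moved with the tumours too. Of 8 alveolar type 2 markers, 7 were called higher in tumours than in KO lung without tumour, and their summed level was 46068 to 100822 CPM in tumours, against 18040 to 29436 CPM in KO lung without tumour and 22876 to 24221 CPM in WT lungs. Summed alveolar macrophage markers were at 2052 to 12683 CPM in tumours, against 678 to 1796 CPM and 777 to 856 CPM. Against KO lung without tumour these markers were split, with 4 of 6 above 0 (2 called higher) and 2 below, down to -0.995. All 4 club cell and all 4 ciliated cell markers were called lower. Also called lower were 2 of 6 alveolar type 1, 1 of 5 endothelial and 1 of 5 fibroblast markers. Mitosis genes summed to 58.4 to 119 CPM in tumours, against 38.4 to 75.4 CPM in KO lung without tumour. What these shifts contribute to the cholesterol gene levels was not tested.

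**Figure D3:**
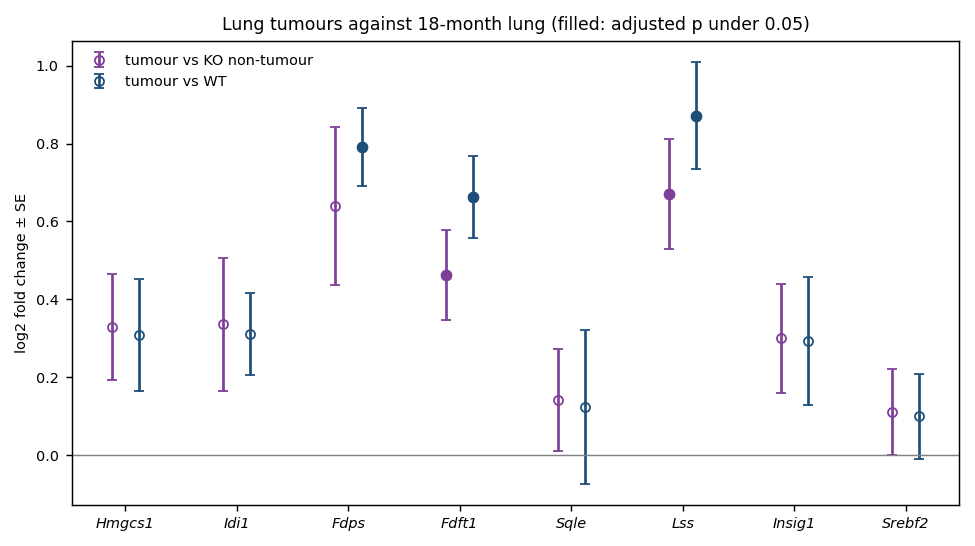
Log2 fold change of the 8 genes in tumours over KO lung without tumour and over WT lung at 18 months, with bars of 1 SE from edgeR and filled points for an adjusted p under 0.05. All points lie above 0, and Lss, Fdps and Fdft1 lie highest in both comparisons, which share their tumour libraries.

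Between E19.5 and 10 months the 8 genes did not move as a block. In WT lungs 2 were called higher at 10 months, Idi1 and Sqle, and 3 lower, Hmgcs1, Srebf2 and Insig1. That is 5 of 8, where 62.8% of 15619 genes were called, 31.6% higher and 31.2% lower. Of the 8 genes 7 did not overlap between the ages, against 69.5% of all genes.

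Idi1 had 92.1, 92.0 and 92.7 CPM in WT lungs at 10 months, against 57.6, 51.8 and 45.6 CPM in WT embryos. The adult values were almost equal to each other and far above all 3 embryos. The difference was 0.82 ± 0.08 with an adjusted p of 2.37e-05 by edgeR. Sqle, the oxygen-dependent step before Lss, had 55.5, 54.7 and 59.7 CPM at 10 months, against 43.5, 39.0 and 41.0 CPM in embryos, a difference of 0.45 ± 0.07 (adjusted p = 0.000418). The 2 ages did not overlap for it.

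Hmgcs1, at the entry of the pathway, went the other way in WT lungs. It had 100.4, 100.4 and 109 CPM at 10 months, against 165, 157 and 139 CPM in embryos, so that every adult library was below every embryo. The difference was -0.58 ± 0.08 (adjusted p = 0.000126). Both regulators were lower in the adult as well: Srebf2 by -0.30 ± 0.06, at 188 ± 10.2 CPM at 10 months and 230.1 ± 6.37 CPM in embryos (SD, n = 3 each; adjusted p = 0.00262), and Insig1 by -0.34 ± 0.11 (adjusted p = 0.0187). The Insig1 call was lost without WT embryo 1 or without either of WT libraries 2 and 3 of 10 months.

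In KO lungs 3 genes were called higher at 10 months than at E19.5 and 0 lower, where 31.1% of 15626 genes were called higher, 29.4% lower and 60.5% in all. Sqle had 65.7, 57.1 and 79.2 CPM at 10 months, against 39.0, 34.5 and 45.7 CPM in KO embryos, a difference of 0.76 ± 0.14 (adjusted p = 0.00217). Fdps had 71.9, 70.6 and 81.0 CPM at 10 months, against 45.6, 44.2 and 55.4 CPM in KO embryos (0.62 ± 0.10, adjusted p = 0.000920). Idi1 had 101, 78.8 and 107 CPM at 10 months, against 53.2, 39.3 and 74.8 CPM in KO embryos (0.77 ± 0.24, adjusted p = 0.0318). The ages did not overlap for these 3 genes, against 69% of all genes without overlap. For Idi1 the highest embryo was close to the lowest adult.

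Of the 3 KO calls, those of Sqle and Fdps held with any 1 library left out (adjusted p at most 0.0118 and 0.00565). The Idi1 call was lost without KO embryo 1 and without KO libraries 1 or 3 of 10 months (adjusted p between 0.0788 and 0.0867). Without KO embryo 3, 5 genes were called, Lss among them at 0.76, while with all libraries Lss differed by 0.47 ± 0.21 (adjusted p = 0.0846). With all libraries kept, Lss passed in DESeq2 (adjusted p = 0.0316) and in the fit over all 23 libraries (0.0215). Hmgcs1, lower in WT adults, had 133, 103 and 158 CPM in KO lungs at 10 months, against 132, 121 and 143 CPM in KO embryos, which is -0.02 ± 0.15 on the log2 scale. The tests of the difference between genotypes in this change are those of the genotype effect at 10 months minus E19.5 above, in which none of the 8 passed. Maturation changed the cells of the lung at the same time: all 8 mitosis genes were called lower at 10 months in both genotypes, 4 of 5 fibroblast markers were called lower, and all 5 T and NK cell markers and all 3 B cell markers were called higher. Summed club cell markers were at 2560 to 2692 CPM in WT embryos and 50632 to 57967 CPM in WT lungs at 10 months. In KO embryos they were at 2139 to 2940 CPM and in KO lungs at 10 months at 46572 to 53612 CPM. Alveolar macrophage markers summed to 73.5 to 97.9 CPM in WT embryos and 742 to 936 CPM in WT lungs at 10 months. Erythroid markers went down, from 5149 to 8325 CPM in WT embryos to 2228 to 2732 CPM. The part of these cells was not tested.

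**Figure D4:**
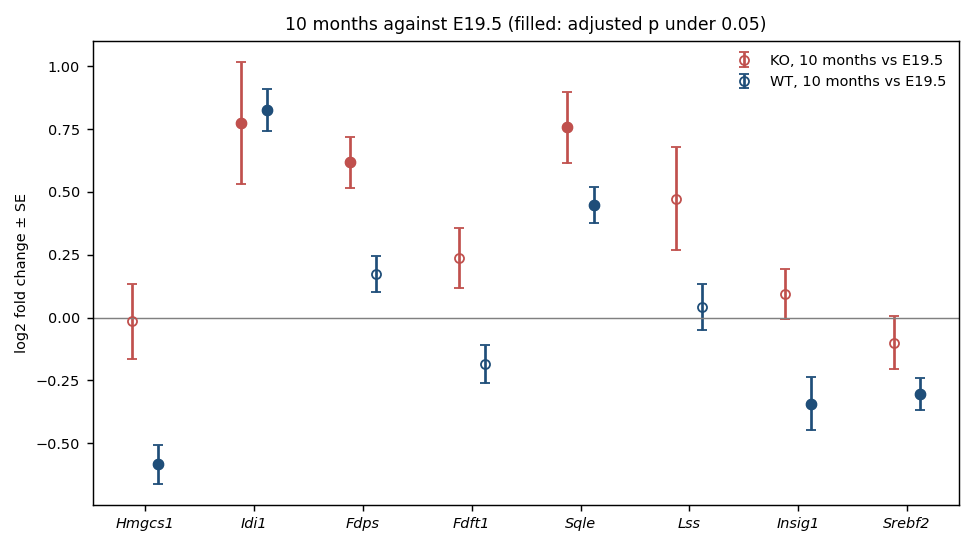
Log2 fold change, 10 months over E19.5, of the 8 genes in KO and WT lungs, with bars of 1 SE from edgeR and filled points for an adjusted p under 0.05. Idi1 and Sqle lie above 0 in both genotypes, while Hmgcs1, at -0.58 in WT lungs, is at -0.02 in KO lungs.

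From 10 to 18 months no gene of the 8 was called in either genotype. In WT lungs all 8 fold changes, 18 over 10 months, were above 0, with a median of 0.18, and 3 did not overlap (Fdft1, Insig1 and Srebf2), where 10.6% of all genes did not. Insig1 had 94.5, 104 and 109 CPM at 18 months, against 91.2, 82.3 and 85.5 CPM at 10 months, a difference of 0.25 ± 0.07 with an unadjusted p of 0.00811 and an adjusted p of 0.866. In KO lungs without tumour 1 of the 8 was above 0, the median was -0.06 and all 8 overlapped, where 3.55% of all genes did not. edgeR called 0 of 15321 genes in WT (0%) and 0 of 15455 in KO lungs (0%), with 833 and 782 at an unadjusted p under 0.05. DESeq2 called 17 genes in WT and 11 in KO lungs, none of them among the 8.

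The rest of the pathway was followed in lists drawn up from textbook roles: 15 other synthesis enzymes, 5 sterol sensing and SREBP processing genes, 10 uptake and intracellular transport genes, 8 efflux and esterification genes, and 8 fatty acid synthesis genes of the SREBP1 arm. At 10 months, KO against WT, none of these 46 genes was called by edgeR, although only 9 of the 10 uptake genes were tested. Of the 15 other synthesis enzymes, 14 had a fold change above 0, with a median of 0.22, and 7 did not overlap between the groups, where 24.7% of all genes did not. The fatty acid genes had a median of 0.01, with 4 of 8 above 0.

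In tumours against KO lung without tumour, 4 of the 15 other synthesis enzymes were called higher and none lower, where 7.2% of all genes were called higher and 6.6% lower. The 3 named here, picked after their values were seen, were Acat2 (acetyl-CoA acetyltransferase) at 0.70 ± 0.14, Dhcr7 (7-dehydrocholesterol reductase) at 0.77 ± 0.18 and Cyp51 (lanosterol demethylase, the step after Lss) at 0.54 ± 0.15. Of the 8 fatty acid genes, 5 were called higher and 1 lower, with a median of 0.88. Fasn (fatty acid synthase) stood at 1553 ± 182 CPM in tumours (n = 3), against 524 ± 75.4 CPM in KO lung without tumour (n = 5; SD), a difference of 1.56 ± 0.16 (adjusted p = 0.00131). Acaca (acetyl-CoA carboxylase) was higher by 0.89 ± 0.12. Me1 (malic enzyme, a source of NADPH) was higher by 1.94 ± 0.27. Soat1, which esterifies cholesterol for storage, was at 227 ± 48.0 CPM in tumours and 98.9 ± 9.17 CPM in KO lung without tumour (1.19 ± 0.14, adjusted p = 0.00172). The calls of list genes and markers in this comparison come from the fit without the mouse block and were not read with it. With the block 146 genes were called over the whole table, against 2134 without it.

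Of the 10 uptake genes 9 were tested in the same comparison. Among them 1 was called higher, Npc2, which carries cholesterol out of lysosomes, at 1.78 ± 0.29, and none lower. Of the sensing genes, 1 of 5 was called higher, Srebf1, which encodes the factor of the fatty acid arm, at 0.48 ± 0.12 (adjusted p = 0.0302). Npc2 and Srebf1 were picked after their values were seen. Against WT lungs, 7 of the 15 other synthesis enzymes were called higher and none lower, Acat2 among them at 0.71 ± 0.11, while 3 fatty acid genes were higher and 1 lower, where 7.87% of all genes were called higher and 7.5% lower.

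Over maturation most of the other synthesis enzymes were higher in the adult and most uptake genes were lower. In WT lungs 10 of the 15 other synthesis enzymes were called higher at 10 months than at E19.5 and 3 lower, and in KO lungs 10 higher and 0 lower. Over all genes 31.6% were called higher and 31.2% lower in WT lungs, and 31.1% higher and 29.4% lower in KO lungs. Sc5d (sterol C5 desaturase) stood at 39.8 ± 0.470 CPM at 10 months and 19.2 ± 0.703 CPM at E19.5 in WT lungs (SD, n = 3 each), a difference of 1.04 ± 0.07, and in KO lungs it differed by 1.26 ± 0.10. Mvd and Mvk, enzymes of the mevalonate steps next to Hmgcs1 and Idi1, were 2 of the 3 lower ones in WT lungs, at -0.60 ± 0.08 and -0.22 ± 0.08, and were picked after their values were seen. Of the 10 uptake genes, 8 were called lower in WT lungs and 6 in KO lungs, and none higher. Vldlr (the very-low-density lipoprotein receptor) was at 79.8 ± 8.71 CPM at 10 months and 276 ± 11.7 CPM at E19.5 in WT lungs, and in KO lungs it was at 81.7 ± 12.5 CPM at 10 months and 299 ± 49.5 CPM at E19.5 (SD, n = 3 each). Of the 8 efflux and esterification genes, 4 were called higher and 3 lower at 10 months in each genotype. Among the higher ones were Cyp27a1 (sterol 27-hydroxylase), by 2.47 ± 0.16 in WT and 2.98 ± 0.13 in KO lungs, and Ch25h (cholesterol 25-hydroxylase), by 3.92 ± 0.34 in WT lungs, where its embryo mean was 0.291 CPM. Soat1, picked after its values were seen, was among the lower ones, at -0.59 ± 0.16 in WT and -0.66 ± 0.15 in KO lungs. Scap, which escorts SREBP proteins to the Golgi and was also picked after its values were seen, was higher by 0.60 ± 0.10 in WT and 0.77 ± 0.08 in KO lungs. Scd1 (stearoyl-CoA desaturase) was higher by 1.65 ± 0.15 in KO lungs.

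Within groups, the 8 genes often sat high or low together in a library. KO embryo 3 was above its group mean in 7 of the 8 genes, by 0.22 on average on the log2(CPM + 1) scale, and WT embryo 1 in all 8, by 0.11. KO library 3 of 10 months was above in all 8, by 0.15, and KO library 2 in 1 of 8, with an average of -0.18. At 18 months WT library 1 was below its group mean in all 8, at -0.16. KO library 2 of 10 months and WT library 1 of 18 months had the highest erythroid sums of their groups, 5030.4 and 5085 CPM. KO embryo 1 also had the highest sum of its group, 7795 CPM, and averaged -0.06. In the other groups the library with the highest erythroid sum averaged above its group mean. These were WT embryo 1 (8325 CPM), WT library 1 of 10 months (2732 CPM, 0.03), tumour 6 (687 CPM, 0.08) and KO non-tumour library 2 (2161 CPM, 0.09). The part of erythroid cells was not tested. KO non-tumour library 6 averaged 0.20 and library 7 averaged -0.25. Among the tumours, tumour 3 was lowest, at -0.13, through Idi1, Sqle, Insig1 and Hmgcs1, while its Fdps and Fdft1 were level with the other tumours.

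**Figure D5:**
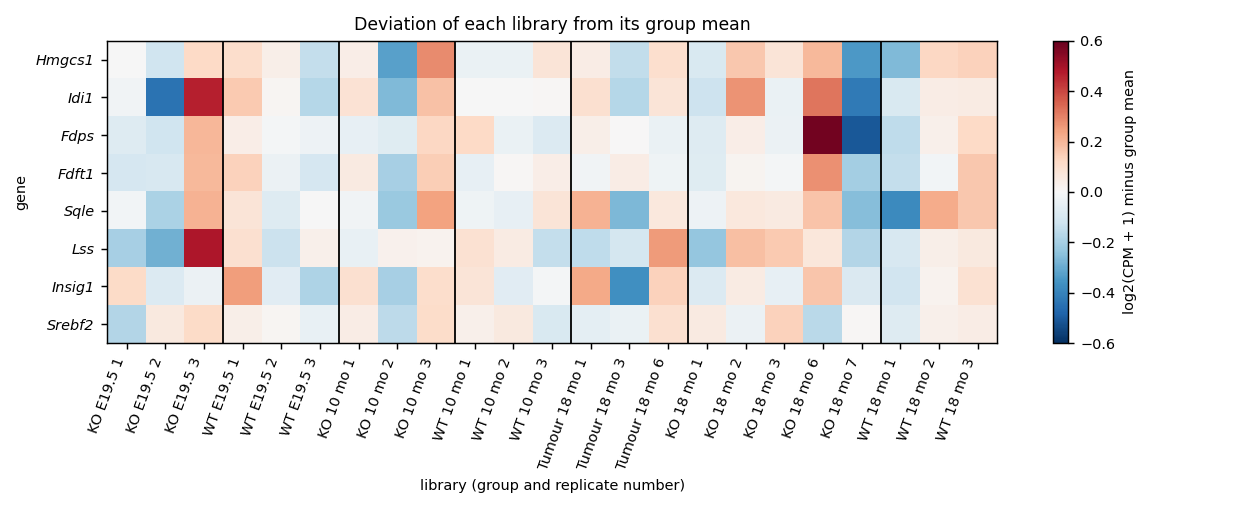
Deviation of each library (columns, by group) from its group mean for each of the 8 genes (rows), on the log2(CPM + 1) scale, in red where above and blue where below. In several libraries, such as KO embryo 3, KO 10 months 3 and WT 18 months 1, nearly all genes have one colour.

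The mean profile of the 8 genes over the 7 groups, each gene centred on the log2 scale, was -0.24 in KO and -0.19 in WT embryos, 0.12 in KO and -0.17 in WT lungs at 10 months, and 0.44 in tumours, 0.05 in KO lung without tumour and 0.00242 in WT lungs at 18 months. Candidates were 9453 genes with a mean of at least 5 CPM and a set minimum spread over the 7 groups, without predicted genes and pseudogenes. Among them, the 5 non-members whose group means lay nearest to this profile by root mean square difference were Cdk5rap3 (0.031), Hebp1 (0.047), Fuom (0.049), Pik3r3 (0.052) and Esrra (0.053). These distances are over 7 group means and carry no test. Of the 8 genes themselves, Fdft1 lay nearest to their mean profile, at 0.089, followed by Lss at 0.14, and Idi1 lay farthest, at 0.27.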

How the data were processed

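Total RNA from 23 mouse lung and lung tumour samples was sequenced in the study. Trimmomatic 0.36, STAR 2.5.2b, RSEM 1.3.0 and the mm10 build are named in the processing notes of the submitters. Whether counting used the strand is not given in the sources used here. The deposited tables held estimated counts and FPKM per gene, per the file headers.

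The deposited estimated counts were rounded, and edgeR 4.0.16 under R 4.3.3 tested every comparison with only the libraries of its groups (filterByExpr, TMM scaling, quasi-likelihood test, prior count 0.125), with Benjamini-Hochberg adjustment over all genes tested and a threshold of 0.05. The SE is the absolute log2 fold change over the square root of F. Levels are CPM with TMM scaling over all 23 libraries, with mean ± SD. FPKM served for levels between genes. Alternatives used DESeq2 1.42.0, limma 3.58.1 on log2(FPKM + 1) and log2(FPKM + 0.1) with a mean of at least 0.5 FPKM, another scaling (RLE), no filter, a fit over all libraries, the replicate number as a block, and each library left out. Scripts ran in Python 3.11.15 and figures were drawn with matplotlib 3.10.9. Only the edgeR fit without a block was tried on simulated counts, for some of the comparisons, with each library drawn independently. The outcome is not reported here.

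The 8 genes and all lists were chosen with earlier results of these data known, so list counts are descriptions. Other pathway genes were named as the 4 called genes with the lowest p per comparison. Exceptions are marked, and some genes under that rule are not reported here. Tumour and non-tumour libraries with the same mouse code were taken as paired. Correlations of their deviations from the group means were 0.457, 0.0116 and 0.0614 for mice 1, 3 and 6. No pair of libraries in a group agreed within counting noise (28 pairs). Matches of promoters used both strands.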

Additional observations from a re-analysis of the deposited data

How the results depend on the processing

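With 14 calls among the 8 genes and 200 alternative values for them, 167 kept the call and 33 lost it, and none changed direction. The losses were uneven. Most were of Lss at 10 months, KO against WT, and of the tumour calls. For 10 months against E19.5 only Insig1 in WT and Idi1 in KO lungs lost a call in any setting. With no filter on low counts, this Idi1 call was lost in edgeR (0.78, adjusted p = 0.0514). At 10 months, KO against WT, 1 gene was called. The count was 2 with no filter on low counts (Lss and Fdps), 4 with DESeq2 (Lss, Fdps, Fdft1 and Insig1), and 0 in the fit over all 23 libraries and in limma on log2(FPKM + 1) with no filter. In tumours against KO lung without tumour, 2 genes were called. The count was 1 with limma on log2(FPKM + 1) and on log2(FPKM + 0.1), where Fdft1 was lost, and 0 with limma on log2(FPKM + 1) with no filter. It was 3, with Fdps added, in DESeq2 (0.65, adjusted p = 0.0226) and in the fit over all 23 libraries (0.64, adjusted p = 0.00253). With 1 library left out at a time, the number called ran from 0 to 4 at 10 months, 1 to 3 in tumours against KO lung without tumour and 0 to 3 against WT lungs. It ran from 2 to 5 in KO lungs and 4 to 6 in WT lungs for 10 months against E19.5, and from 0 to 1 for the genotype effect at 10 months minus E19.5. The cause of each of these changes was not tested. Within the number of libraries per group, differences as small as those at 18 months could not be told from 0.

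With the replicate block, 0 genes were called at 10 months, where Lss was at 0.49 with an adjusted p of 0.0819. The block also gave 0 in tumours against KO lung without tumour. Under it Lss passed for KO lungs at 10 months against E19.5 (0.52, adjusted p = 0.0397), and the block changed no other call. Only tumour and non-tumour libraries with the same code were read as paired by mouse. Elsewhere same-numbered libraries share only a number, and at 10 months their correlations were -0.439, -0.532 and -0.171.

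The direction changed only for differences that were not called. In KO lung without tumour against WT lung at 18 months, limma on log2(FPKM + 1) gave 0.017 for Hmgcs1, 0.037 for Sqle, 0.031 for Insig1 and 0.023 for Srebf2, the same with no filter, and on log2(FPKM + 0.1) gave 0.017, 0.039, 0.031 and 0.023 for these genes in that order. The replicate block gave 0.014 for Hmgcs1, 0.013 for Sqle and 0.024 for Srebf2. For KO lung at 18 against 10 months Srebf2 was at 0.021 in all 3 limma fits and 0.029 with the block. Lss in WT lungs at 10 months against E19.5 was at -0.012, -0.015 and -0.012 in limma with the larger pseudocount, the smaller one and no filter. Srebf2 in KO against WT embryos was at 0.00068 in the fit over all libraries.

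Leaving out 1 library turned these uncalled differences. For KO against WT at E19.5 the ranges were -0.16 to 0.017 for Fdft1, -0.16 to 0.0091 for Fdps, -0.16 to 0.31 for Idi1, -0.21 to 0.015 for Insig1, -0.22 to 0.22 for Lss, -0.16 to 0.042 for Sqle and -0.061 to 0.077 for Srebf2. At 10 months Idi1 ran from -0.047 to 0.16. At 18 months the ranges were -0.028 to 0.26 for Fdps, -0.14 to 0.052 for Hmgcs1, -0.11 to 0.064 for Idi1, -0.066 to 0.032 for Insig1, -0.19 to 0.090 for Sqle and -0.052 to 0.025 for Srebf2. For KO lung at 18 against 10 months they were -0.048 to 0.12 for Fdft1, -0.23 to 0.056 for Fdps, -0.25 to 0.052 for Hmgcs1, -0.16 to 0.055 for Idi1, -0.20 to 0.038 for Sqle and -0.087 to 0.040 for Srebf2. Idi1 ran from -0.25 to 0.21 in the genotype effect at 10 months minus E19.5 and from -0.19 to 0.022 in that at 18 minus 10 months. Hmgcs1 in KO lungs at 10 months against E19.5 ran from -0.16 to 0.13, Lss in WT lungs at those ages from -0.015 to 0.12, and Sqle in tumours against WT lungs from -0.050 to 0.24.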
